A study of Mus musculus with 40 samples.

Results

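The effect of the Ttpa genotype was examined in the cerebral cortex of aged mice that had been kept on the diet without α-tocopherol. The comparison set 4 arrays of Ttpa-/- cortex against 4 arrays of wild-type cortex, 8 of the 40 arrays of the series. All of these mice were 29 months old, of the C57Bl/6 strain and on the α-tocopherol-deficient diet, so that the genotype was the only labelled difference between the groups, and 1 array was run for each of 4 mice per group. The other groups were mice of the same age or 2 months old, on the normal diet (36 mg of α-tocopherol/kg) or, for Ttpa-/-, the supplemented diet (600 mg of α-tocopherol/kg), and the cerebellum was sampled from every condition.

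α-Tocopherol is the form of vitamin E that the body retains, a lipid-soluble antioxidant that ends chains of lipid peroxidation in membranes. Ttpa encodes the α-tocopherol transfer protein (α-TTP), which in the liver loads α-tocopherol for release into plasma lipoproteins, and loss of the protein in mice or humans lowers α-tocopherol throughout the body, the brain included. On the deficient diet the wild-type mice also received little α-tocopherol, and the comparison asks what the lack of α-TTP added to that. The mutation was carried in every cell from birth and the tissue was whole cortex, so neither the cell type nor the time at which a change arose was resolved.

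RNA was hybridised to Agilent 1-colour arrays of 60-base probes. The level of a probe is given as log2 of its processed signal minus log2 of the 75th percentile of the same array, so that a level of 0 lies at that percentile and 1 unit is a 2-fold difference. Levels were not compared between probes. Testing covered probes that exceeded background clearly on every array of one genotype or the other, and a probe was called where the adjusted p (limma, Benjamini-Hochberg) was under 0.05 and the fold change over 1.5. "Rose", "fell", "higher" and "lower" below refer to Ttpa-/- relative to wild type.

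The 8 arrays were alike in brightness, with a 75th percentile of 453 to 549 and 53.4% to 56.7% of probes well above background. Correlations over the tested probes were 0.985 to 0.996 within a genotype and 0.979 to 0.993 between genotypes. The 4 wild-type arrays shared a slide with Ttpa-/- cortex of the supplemented diet and the 4 Ttpa-/- arrays lay on another slide, so the slide and the genotype cannot be told apart in this comparison. Markers of cortical excitatory neurons matched the label of the tissue: 18 of 18 were well above background on all 8 arrays, among them Tbr1, Neurod6 and Slc17a7. Of 16 cerebellar markers 12 were well above background on every array of one genotype or the other. The other 4, including Gabra6 and En1, were above background on none.

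The targeted gene was near the limit of detection in cortex. Ttpa (mm9, chr4:19957856-19957915, plus strand) read -6.78, -5.75, -5.41 and -4.07 in wild type and -6.78, -7.03, -7.00 and -6.73 in Ttpa-/-. Only 1 of the 4 wild-type arrays and none of the Ttpa-/- arrays was well above background, so no fold change is given for cortex, and the exact two-sided permutation p was 0.0857. In cerebellum, where the probe was measurable in wild type, that group read -4.29, -4.00, -3.39 and -3.43 and Ttpa-/- read -6.84, -7.04, -6.83 and -6.34, none of the latter above background, so the transcript was at least 1.95-fold lower (adjusted p 5.06e-07). The second Ttpa probe was above background on none of the 8 cortex arrays.

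Of 29061 probes tested, 445 were higher and 446 lower in Ttpa-/- cortex, 3.07% in all and 1.53% in each direction. They carried 230 distinct gene symbols among the rises and 278 among the falls. Changes were mostly modest: 0.265% of tested probes rose and 0.368% fell by more than 2-fold, and the median over all tested probes was -0.01. Among the 891 called probes 625 had arrays that did not overlap between genotypes, and over all tested probes 17.2% had such a separation. Call and separation use the same arrays, so the first count is no separate support for the calls. At an unadjusted p under 0.05 the counts were 758 and 671.

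The counts above use an estimate of spread from all 40 arrays. With the 8 arrays fitted by themselves, limma called 1 probe higher (a probe without a gene symbol) and 1 lower, a probe of Gc, the vitamin D-binding protein. They also moved with single arrays: 780 and 715 were called without wild-type replicate 4, 209 and 277 without Ttpa-/- replicate 1, and 293 and 200 without wild-type replicate 1. When the same wild-type arrays were set against Ttpa-/- cortex of the supplemented diet on their own slide, 7 probes were higher and 2 lower, and of all 28445 probes tested there 0.0316% were called. That comparison shares the wild-type arrays with the main one and differs from it in diet as well as slide, and the parts of diet and slide cannot be told apart.

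Chromosome 4, which carries Ttpa, had the highest share of called probes of any chromosome, 90 of 1873 (4.81%), followed by chromosome 19 at 3.88%. Within 20 Mb of Ttpa 11 of 215 tested probes were called (5.12%). A window 20 to 25 Mb distal of the gene was chosen after its values were seen. In it 22 of 132 were called (16.7%), 4 higher and 18 lower. Many of the lower probes there belong to genes with near-identical copies, such as Ccl27a, Gm13308 and Gm13298, which the same probe may read together. Those probes are not separate observations, and they raise both the share of this window and that of chromosome 4. On chromosome 4 farther than 25 Mb from Ttpa the share was 3.74%, and on the other chromosomes 2.95%. The other chromosomes held 794 of the 891 calls.

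**Figure D1:**
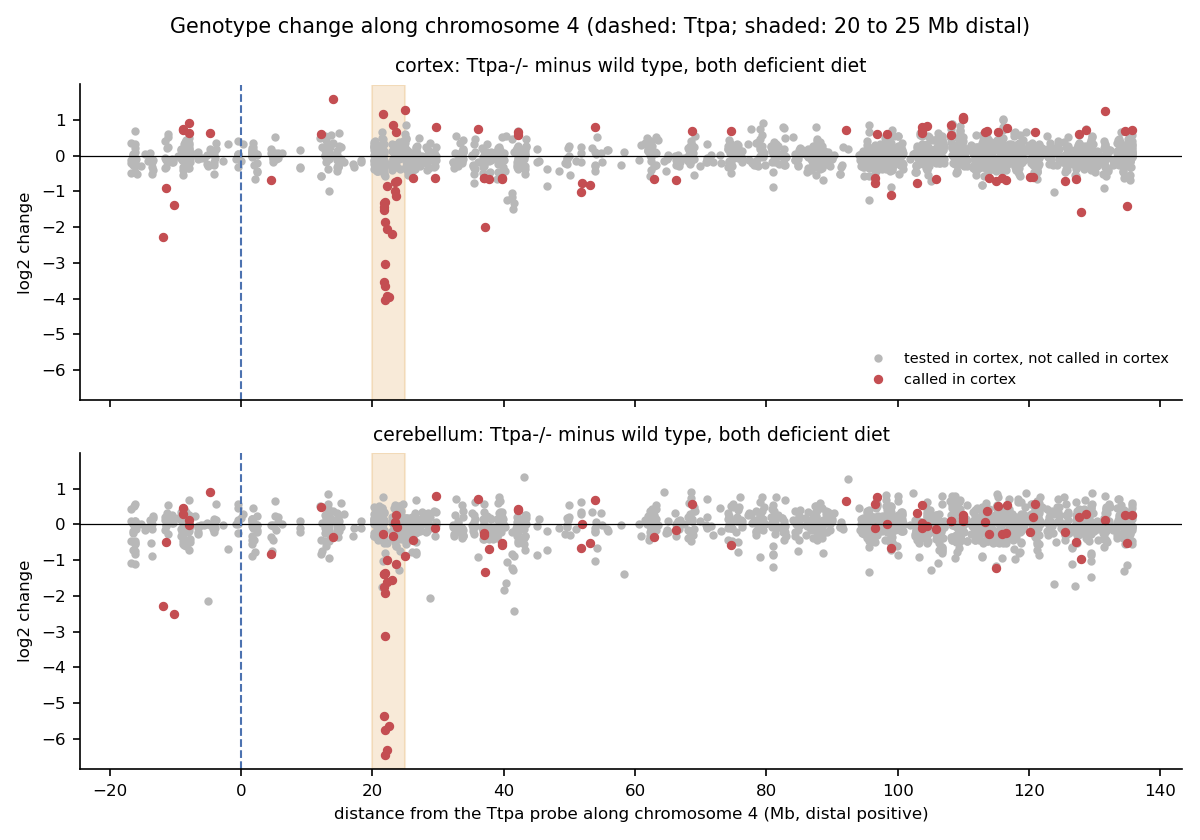
Log2 change in Ttpa-/- against wild type on the deficient diet (vertical axis) in cortex (upper panel) and cerebellum (lower panel) against distance from Ttpa in Mb (horizontal axis), one point for each chromosome 4 probe tested in cortex, with those called in cortex in red. The points far below 0 in both panels lie in the shaded stretch 20 to 25 Mb distal of Ttpa (dashed line), where 18 probes fell and 4 rose in cortex.

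Probes of genes described next are printed because a hybridisation signal depends on the exact bases under the probe. They include the uncalled Klhl32 probe (the second) and the 2 uncalled Map3k7 probes (the first pair), whose readings differed from those of the called probe of the same gene. Each line gives the first 30 of the 60 bases of a probe, 5′ to 3′ as in the array files and in lower case throughout, since no part of them is singled out. Positions are the files' own, on mm9, and cover the whole probe. Car8, Klhl32 and Map3k7 flank Ttpa, and the other 3 genes lie in the distal window.
Car8, chr4:8070545-8070604, minus strand: atctgattcagaatagaaacattactgtgt
Klhl32, chr4:24544420-24544479, minus strand: catggacatcctcagtgcttccctatcgtg
Klhl32, chr4:24609342-24609401, minus strand: attacttggatctgtacagacttgctgacc
Map3k7, chr4:32104023-32104082, plus strand: gtgcccaaactccaaagaatccatggcagt
Map3k7, chr4:32107645-32107704, plus strand: ctgagtctgttgccttcccatgcttttaag
Map3k7, chr4:32108103-32108162, plus strand: tgtgccttcctcaaaacctgttagtagaaa
Ccl27a, chr4:41720610-41720669, minus strand: tcggagccccggacatgtcgcgattgagga
Gm13298, chr4:41841838-41841897, plus strand: gacagactctgagcaggacatggaagacag
Creb3, chr4:43579839-43579898, plus strand: ttgccccgtgaatagatttggagacattta

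The steepest falls in the whole comparison belonged to a block of genes 20 to 25 Mb distal of Ttpa. Gm13298 (now Fam205a2) read 0.87, 0.77, 0.98 and 1.85 in wild type and -6.69, -0.62, -4.54 and 0.12 in Ttpa-/-, a change of -4.05 ± 1.0 (SE, n = 4 and 4, adjusted p 0.00885). Every Ttpa-/- array lay below every wild-type array, but replicates 1 and 3 lay far below replicates 2 and 4. Gm1987, a gene of the same repeated stretch, showed the same split, with 4.21, 3.44, 3.67 and 3.74 in wild type and -2.24, 1.40, -1.83 and 2.01 in Ttpa-/- (change -3.93 ± 0.70, adjusted p 7.79e-04).

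The same 2 replicates were the low ones for 4933409K07Rik (change -3.96), Gm3893 (-3.63 and -2.56 on its 2 probes) and a further Gm13298 probe (-3.64), while the Gm13298 probe that lies farthest from these read -0.56 (adjusted p 0.261). In Ttpa-/- cortex of the supplemented diet Gm13298 read 1.28, 1.22, 1.66 and 1.61, 0.33 above the deficient wild type (adjusted p 0.95). In Ttpa-/- cerebellum of the deficient diet, it read -6.79, -7.04, -6.82 and -0.49, so there 3 of the 4 arrays were at the bottom of the scale. The calls of 4933409K07Rik and of both these Gm13298 probes were lost without Ttpa-/- replicate 1 (-2.80, -2.79 and -2.80), and that of 4933409K07Rik also without Ttpa-/- replicate 3 (-3.27). These genes have near-identical copies, and 1 probe may read several of them.

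Chemokine genes of the same block fell more evenly. Ccl27a, which encodes a chemokine that attracts T cells to skin, read 3.24, 3.23, 3.33 and 3.52 in wild type and 1.57, 1.98, 1.31 and 2.38 in Ttpa-/- on the probe printed above. This was a change of -1.52 ± 0.18 (adjusted p 2.80e-06), and its other 2 probes fell by 1.43 and 1.33. Ccl19, a chemokine that guides T cells and dendritic cells to lymphoid tissue, fell by 2.07 (adjusted p 8.29e-05) and 0.86 on 2 probes and read -0.23 on its remaining probe, which was not called (adjusted p 0.34). Ccl27a too has near-identical copies, which include the 2 called probes of Gm13308 (now Gm21953, -1.30 and -1.85). Of 10 genes listed for this cluster 6 were on the arrays and tested. Of these 5 fell, against 1.53% of all tested probes, and Il11ra1, an interleukin 11 receptor subunit, changed by -0.32, under the 1.5-fold threshold. Because 1 probe may read several copies, the 5 are not separate observations, and 3 stayed called without Ttpa-/- replicate 1.

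Single-copy genes of the window moved in both directions. Creb3, a transcription factor anchored in the membrane of the endoplasmic reticulum, read between 2.77 and 2.83 in wild type and 1.32, 1.78, 1.46 and 2.08 in Ttpa-/- (change -1.14 ± 0.13, adjusted p 2.24e-06). The supplemented Ttpa-/- arrays read 2.75, 2.83, 2.57 and 2.76, with a mean 0.07 below that of wild type, and in cerebellum the change was -1.10. Cd72, a B-cell co-receptor, fell on 2 probes by 0.75 and 0.98, whereas Cntfr, the receptor for ciliary neurotrophic factor, rose by 1.18 on 1 probe (adjusted p 0.0358), with 3 of 4 wild-type arrays above background, and read 0.03 on another (adjusted p 0.98). Fancg, a DNA repair gene of the Fanconi anaemia complex, rose by 0.87 and Sit1, a T-cell signalling adaptor, by 0.66.

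**Figure D2:**
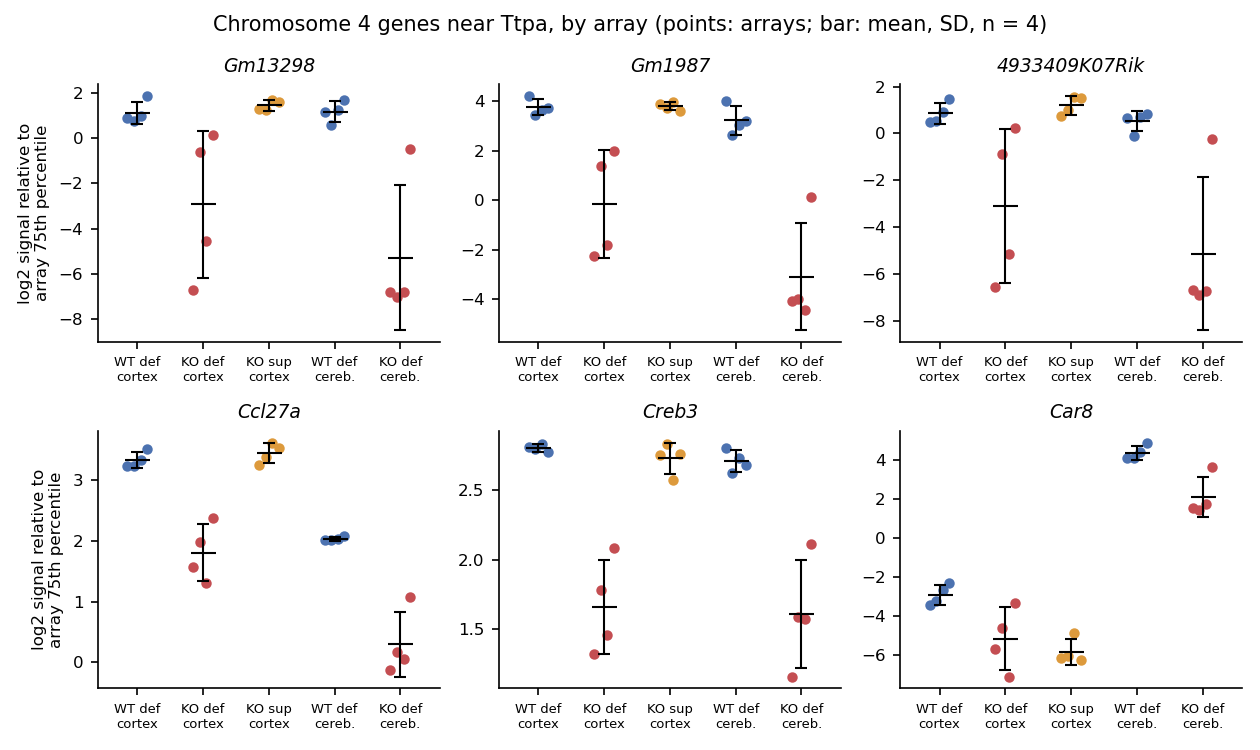
Level of probes on chromosome 4 (log2 relative to the 75th percentile of the array) on each array of deficient wild-type (WT def), deficient Ttpa-/- (KO def) and supplemented Ttpa-/- cortex (KO sup) and of deficient wild-type and Ttpa-/- cerebellum (cereb.), one point per array with the mean and SD in black. For Gm13298 the Ttpa-/- arrays of the deficient diet spread from -6.69 to 0.12 while the supplemented arrays lie between 1.22 and 1.66, and for Car8 both Ttpa-/- groups of cortex are low.

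Within 20 Mb of Ttpa, the probes of Car8 and NAP095541-001 were called lower in Ttpa-/- on both diets, against the same wild-type arrays. Car8, a carbonic anhydrase-related protein that binds the inositol trisphosphate receptor, read -3.43, -3.24, -2.67 and -2.31 in wild type and -5.71, -4.61, -7.13 and -3.32 in deficient Ttpa-/- cortex. Replicate 4 of Ttpa-/- fell within the wild-type range and only 2 of the 4 Ttpa-/- arrays were above background (change -2.28 ± 0.48, adjusted p 0.00265). Supplemented Ttpa-/- cortex read -6.17, -6.08, -4.90 and -6.30, none above background and at least 3-fold below the wild type (adjusted p 0.00547), and in cerebellum the change was -2.27. Its second probe was above background on 1 wild-type array and no Ttpa-/- array and was not tested.

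Klhl32, a kelch-family gene, fell on 1 of its 2 probes, from 2.00, 2.13, 2.18 and 2.16 to 1.36, 1.41, 1.39 and 1.60 (change -0.68 ± 0.08, adjusted p 2.25e-06). The supplemented Ttpa-/- arrays read -0.42 relative to wild type (adjusted p 0.0216), under the fold threshold, while the second probe read 0.02 in cortex. Map3k7, the kinase TAK1 of inflammatory and TGF-β signalling, had 3 probes within a few kilobases that moved apart: 1 rose by 0.60 (adjusted p 3.21e-04) and the others read -0.57 and -0.56, adjusted p 2.29e-04 and 0.0058, just under the 1.5-fold threshold. On all 3 the arrays of the genotypes did not overlap, and in cerebellum the same probes read 0.50, -0.44 and -0.84. With both directions on a single gene, its level cannot be stated as higher or lower.

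Of the remaining called probes near Ttpa, Ints8, a subunit of the Integrator complex that processes small nuclear RNAs, rose by 0.76, and the probe of C430048L16Rik (now Rbm12b2), an RNA-binding protein gene, by 0.64. A probe of 4930412C18Rik, an uncharacterised transcript, fell by 1.39 and a probe named NAP095541-001, with no gene symbol, by 0.90 (0.79 on the supplemented diet, adjusted p 0.0216). Calls were lost for Rbm12b2 without wild-type replicates 1 (0.56) or 4 (0.54), and for 4930412C18Rik without wild-type replicates 2, 3 or 4 or Ttpa-/- replicates 1 or 4 (-1.41 to -1.07). The rest of the 11 were 4 probes without gene symbols, all higher, by 0.64 to 1.59.

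Away from this region, rises were ranked among called symbols well above background on all 8 arrays whose arrays did not overlap between genotypes. Separation was thus a condition of this choice, as it was for the ranked falls. Largest was the rise of Nptx2, neuronal pentraxin 2, a secreted protein induced by activity that gathers AMPA receptors at synapses. Nptx2 read -3.07, -2.98, -3.46 and -2.04 in wild type and -0.54, -1.64, -1.30 and -1.95 in Ttpa-/-. Ttpa-/- replicate 4 came within 0.09 of a wild-type array, and the change was 1.53 ± 0.30 (adjusted p 0.00158). On its brighter probe Nptx2 read -0.23, -0.25, -0.27 and -0.05 against 1.15, 0.66, 0.95 and 0.60 (change 1.04, adjusted p 0.0497), a call that was lost whichever array was left out, except Ttpa-/- replicate 4 (0.93 to 1.10). Supplemented Ttpa-/- cortex differed from wild type by 0.15 and -0.22 on these probes.

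Inhba, the activin βA subunit and another activity-dependent secreted factor, rose from -1.22, -1.02, -0.80 and -0.84 to 0.46, -0.16, 0.18 and 0.16 (change 1.13 ± 0.20, adjusted p 6.46e-04). Fosb, an AP-1 transcription factor that accumulates with repeated neuronal activity, rose from 0.60, 0.67, 0.67 and 0.77 to 1.40, 1.48, 1.67 and 1.55 (change 0.85 ± 0.20, adjusted p 0.0052). For Fosb every Ttpa-/- array was above every wild-type array, a separation that for Inhba was a condition of its choice. The supplemented Ttpa-/- arrays differed from wild type by -0.04 for Inhba and -0.06 for Fosb. Nptx2, Inhba and Fosb were the 3 called genes of 21 neuronal immediate early genes tested. None was lower and the median was 0.29, against 1.53% of all tested probes called higher and a median of -0.01. Other members were not called, among them Arc (0.40, adjusted p 0.325), Npas4 (0.50, 0.309), Egr1 (0.11, 0.767) and Fos (0.31, 0.73). Deficient Ttpa-/- cortex exceeded aged normal-diet wild-type cortex by 0.27 for Inhba, 0.37 for Fosb, and 1.11 and 0.77 for the first and brighter Nptx2 probes.

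Hsf1, the master transcription factor of the heat shock response, rose from 0.79, 0.94, 0.82 and 0.74 to 1.87, 1.35, 1.62 and 1.51. The change of 0.76 ± 0.09 (adjusted p 7.48e-06) was measured on arrays that did not overlap, and supplemented Ttpa-/- cortex differed by 0.00. Hsf1 was the only called gene of 22 heat shock genes tested, against 1.53% of all tested probes called higher, and their median was 0.13. The Hsf1 targets Hspa1a (0.28), Hspb1 (0.14) and Dnajb1 (-0.08) were not called. By the adjusted p alone 6 of the 22, Hsf1 included, were higher and 2 lower, against 5.53% and 7.45% of all tested probes.

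**Figure D3:**
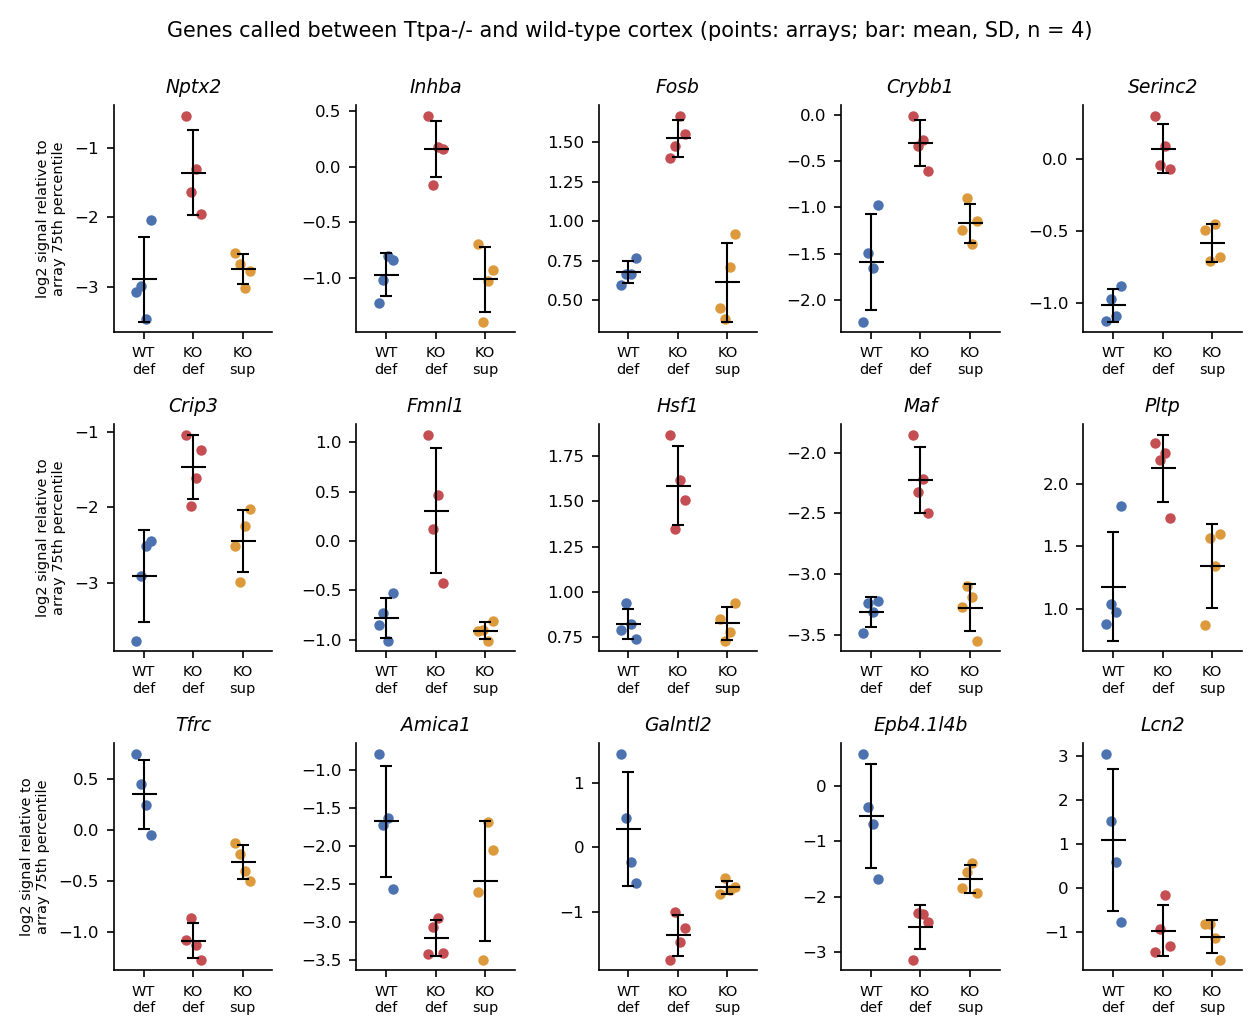
Level of named genes (log2 relative to the 75th percentile of the array) on each array of deficient wild-type (WT def), deficient Ttpa-/- (KO def) and supplemented Ttpa-/- cortex (KO sup), one point per array with the mean and SD in black. Nptx2, Inhba and Hsf1 are higher on the deficient Ttpa-/- arrays than in either other group, and Tfrc is lower on them.

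Crybb1, a β-crystallin also expressed by microglia, read -2.23, -1.49, -1.65 and -0.97 in wild type and -0.01, -0.34, -0.27 and -0.61 in Ttpa-/- (change 1.27 ± 0.21, adjusted p 3.21e-04), and its second probe rose by 1.03. Bfsp2, the lens filament protein phakinin, rose by 1.10 (adjusted p 0.0287). Maf, a transcription factor of lens and cortical interneurons, rose by 1.09 on 1 probe (adjusted p 4.12e-05) and read -0.05 on another, and the Bfsp2 call was lost without wild-type replicates 1, 2 or 3 or Ttpa-/- replicates 1 or 3 (0.85 to 1.15). Against aged normal-diet wild-type cortex, deficient Ttpa-/- cortex read 0.97 for the first Crybb1 probe, 0.18 for Bfsp2 and 1.08 for the first Maf probe.

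Serinc2, a membrane protein of the serine incorporator family, rose on all 3 of its probes, by 1.09, 1.07 and 1.03 (adjusted p 2.55e-04 to 0.00175). Arrays did not overlap on any of them, which for the first was a condition of its choice. Crip3, a LIM-domain protein, rose by 1.44 (adjusted p 0.00231), Fmnl1, a formin that remodels actin in leukocytes, by 1.09 (adjusted p 0.00231) and Tnfrsf25, the death receptor DR3, by 1.26 (adjusted p 0.0282). Chka, choline kinase α at the entry to phosphatidylcholine synthesis, rose by 1.16 (adjusted p 0.0032) on 1 probe, but its other 3 probes read -0.06 to 0.15. The Tnfrsf25 call was lost when wild-type replicate 1 (0.94) or Ttpa-/- replicates 1 (1.11) or 4 (1.13) were left out. Deficient Ttpa-/- cortex read -0.39 for Tnfrsf25 against aged normal-diet wild-type cortex. In that comparison Crip3 read 0.86, Fmnl1 1.15, the first Serinc2 probe 0.60 and the called Chka probe 0.54.

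The largest rises of all were on dim probes. Igh-VJ558, a family of immunoglobulin heavy chain variable segments that a probe may not tell apart, rose by 2.05 and 1.84 on 2 probes, with wild type above background on 2 of 4 arrays. On the first of them wild type ranged from -5.31 to -2.31 and Ttpa-/- from -1.87 to -1.58. Dlx1as, an antisense transcript of an interneuron homeobox gene, rose by 1.92 with 1 of 4 wild-type arrays above background. All 3 calls were lost without wild-type replicate 1 (1.55, 1.19 and 1.42) and without Ttpa-/- replicates 1 (1.99, 1.81 and 1.79) or 3 (2.04, 1.83 and 1.94), the Igh-VJ558 calls also without Ttpa-/- replicate 2 (2.08 and 1.85), and the first also without wild-type replicate 4 (1.77).

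In the vitamin E pathway, 1 of 21 genes tested was called, against 3.07% of all tested probes in either direction. Pltp, the phospholipid transfer protein that also moves α-tocopherol between lipoproteins and cells, read 0.88, 1.04, 0.97 and 1.82 in wild type and 2.33, 2.19, 2.25 and 1.73 in Ttpa-/-. The change was 0.95 ± 0.20 (adjusted p 0.00259), but Ttpa-/- replicate 4 lay below wild-type replicate 4, so the groups overlapped and the exact two-sided permutation p was 0.0571. Supplemented Ttpa-/- cortex was 0.17 above wild type. The median of the list was -0.04.

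Other carriers and receptors of vitamin E stayed within the threshold. Scarb1, the lipoprotein receptor SR-BI that takes up vitamin E, changed by 0.12 (adjusted p 0.489), Abca1, which exports it, by -0.13 (0.483), Apoe, the main brain apolipoprotein, by 0.07 (0.671) and Sec14l2, a tocopherol-associated protein, by 0.12 (0.457). Vldlr at -0.29 (adjusted p 0.0206) and Lrp1 at 0.24 (adjusted p 0.0324), both lipoprotein receptors, passed the adjusted p but not the fold.

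Among the falls outside chromosome 4, Tfrc, the transferrin receptor that brings iron into cells, fell on all 3 of its probes. On the probe with the largest change it read 0.75, 0.45, 0.25 and -0.05 in wild type and -1.08, -0.86, -1.13 and -1.27 in Ttpa-/-, a change of -1.43 ± 0.17 (adjusted p 3.25e-06). The other 2 Tfrc probes, not chosen by separation, changed by -1.26 and -0.95 with no overlap of arrays on either. In cerebellum the 3 probes changed by -0.61, -0.71 and -0.77. Of 14 iron genes tested Tfrc and Cp, ceruloplasmin, a copper-containing ferroxidase, were called lower (Cp -0.62, adjusted p 0.0452) and none higher, with a median of -0.07. Over all tested probes 1.53% were called lower. Ferritin chains Fth1 (-0.09) and Ftl1 (-0.06), transferrin Trf (-0.03) and the exporter Slc40a1 (0.11) were not called. The Cp call was lost whichever array was left out, except wild-type replicate 4 (-0.70 to -0.35).

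In several further falls wild-type replicate 1 was the highest wild-type array. Epb4.1l4b (now Epb41l4b), a FERM-domain cytoskeletal protein encoded on chromosome 4 far distal of Ttpa, read 0.58, -0.38, -0.69 and -1.69 in wild type and -3.14, -2.29, -2.31 and -2.46 in Ttpa-/- (change -2.01 ± 0.31, adjusted p 2.01e-04), although its other probe read 0.13. Galntl2, a glycosyltransferase that starts O-linked glycans, fell by 1.65 (adjusted p 6.70e-04) and Amica1 (now Jaml), a junctional adhesion protein of leukocytes, by 1.53 (adjusted p 9.73e-04). Gbp5, an interferon-induced guanylate-binding protein, read 1.93, -0.13, -0.65 and -1.09 in wild type and between -1.87 and -1.75 in Ttpa-/-, a change of -1.81 (adjusted p 0.017). Without wild-type replicate 1 the Gbp5 change was -1.18 and no longer called (adjusted p 0.118). Deficient Ttpa-/- cortex read -0.93 for Epb41l4b, -0.47 for Galntl2, -0.92 for Jaml and -0.61 for Gbp5 against aged normal-diet wild-type cortex.

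Of 13 genes of reactive astrocytes tested, 4 were lower and none higher, with a median of -0.55, against 1.53% of all probes called lower and a median of -0.01. Lcn2, lipocalin 2, an iron-siderophore binding protein of inflamed astrocytes, read 3.05, 1.53, 0.59 and -0.77 in wild type and -1.44, -0.92, -0.16 and -1.32 in Ttpa-/-, so that wild-type replicate 4 lay inside the Ttpa-/- range (change -2.06 ± 0.65, adjusted p 0.034). Osmr, the oncostatin M receptor (-0.83, adjusted p 0.0321), Timp1, an inhibitor of matrix metalloproteinases (-0.69, adjusted p 0.049), and Cp (-0.62) were the other 3. Against aged wild-type cortex on the normal diet, deficient Ttpa-/- cortex read -0.18 for Lcn2, -0.27 for Osmr, -0.65 for Timp1 and 0.04 for Cp. The mean of Lcn2 was 1.10 in deficient wild type and -0.78 in normal-diet wild type. Gfap, the astrocyte filament, read -0.46 (adjusted p 0.088) and Serpina3n, a protease inhibitor, -0.75 (adjusted p 0.238), and neither was called.

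No reactive astrocyte gene was called without wild-type replicates 1 or 2 or Ttpa-/- replicate 1, and 1 or 2 were called without wild-type replicate 3 or Ttpa-/- replicates 2 or 3. Without wild-type replicate 1 Lcn2 changed by -1.41 (adjusted p 0.185), Osmr by -0.54 (0.189), Timp1 by -0.54 (0.191) and Cp by -0.35 (0.268). The summed level of all 15 genes of the list, tested or not, was 5.82 to 6.40 in wild type and 5.52 to 6.01 in Ttpa-/-. General astrocyte markers had 0 of 14 called and a median of -0.09. In bulk cortex, fewer cells of a type and less RNA per cell cannot be told apart.

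Among 21 genes of disease-associated microglia 3 were lower and none higher, against 1.53% of all probes called lower, with a median of -0.35 and 19 below 0. Ch25h, cholesterol 25-hydroxylase, read 0.17, -1.07, -1.73 and -1.79 in wild type and -3.53, -2.10, -2.06 and -2.25 in Ttpa-/- (change -1.38 ± 0.41, adjusted p 0.0245). Lgals3, galectin-3 (-1.05, adjusted p 0.0355), and Cst7, the protease inhibitor cystatin F (-1.02, adjusted p 0.0425), were the others, while Trem2 (-0.37, adjusted p 0.135) and Clec7a (-0.75, adjusted p 0.113), both receptors of activated microglia, were not called. Against aged normal-diet wild-type cortex the deficient Ttpa-/- readings were -0.47 for Ch25h, -0.61 for Lgals3 and -1.43 for Cst7. All 3 calls were lost without wild-type replicates 1 (-0.95, -0.86 and -1.05) or 2 (-1.37, -0.92 and -0.93) or Ttpa-/- replicate 1 (-1.03, -0.75 and -0.84), 1 of the 3 remained without wild-type replicate 3 or Ttpa-/- replicate 3, and 2 without wild-type replicate 4 or Ttpa-/- replicate 2.

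Of 14 homeostatic microglial genes 1 fell, the secreted protein Olfml3 (-0.60, adjusted p 0.0153), whose other probe read 0.29, and the median was -0.03. The share of all tested probes called lower was 1.53%. P2ry12 (0.55, adjusted p 0.0352) and P2ry13 (0.48, adjusted p 0.0272), the purinergic receptors of resting microglia, passed the adjusted p but not the fold. Without wild-type replicate 4, 4 genes of this list were called, and the Olfml3 call was lost without wild-type replicate 2 (-0.56) or Ttpa-/- replicates 2, 3 or 4 (-0.57 to -0.52). Complement genes (0 of 13 called, median -0.24) and genes of antigen presentation and the interferon response (0 of 26 called, median -0.28) were negative in 13 and 24 members.

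**Figure D4:**
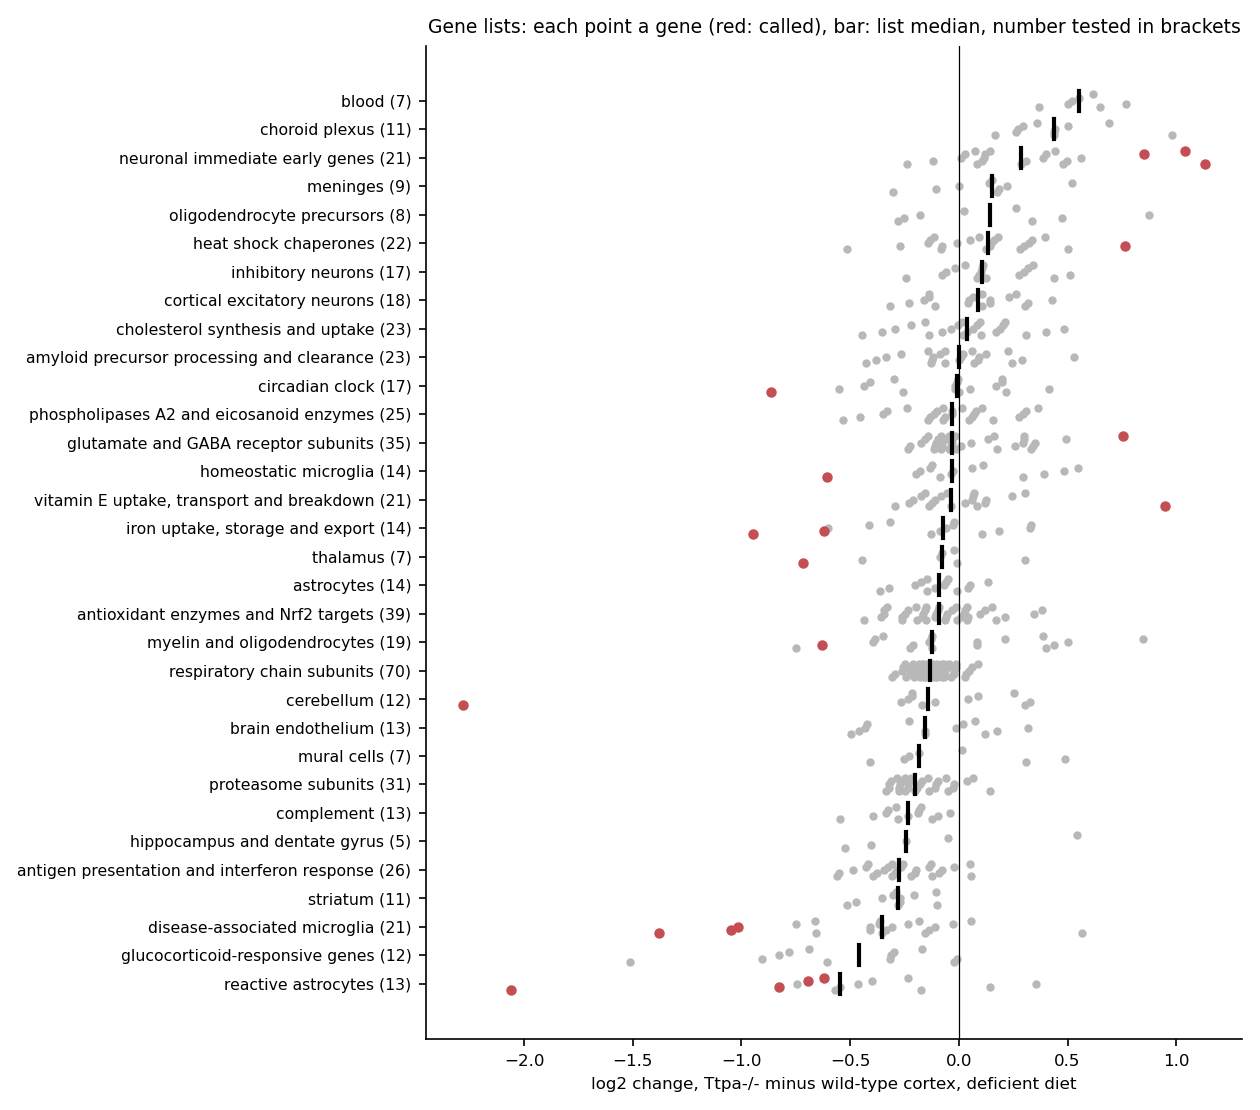
Log2 change in Ttpa-/- against wild-type cortex (horizontal axis) for the tested genes of each list (rows), one point per gene, with called genes marked and the list median shown. Medians of neuronal and general astrocyte lists lie near 0, those of reactive astrocytes and disease-associated microglia at -0.55 and -0.35, and the immediate early genes at 0.29.

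A list of plasma proteins made in the liver was drawn up after its values were seen, so its count is a description. Of 33 genes on the arrays 16 were tested, 7 of them lower and none higher, with a median of -0.99 and 5 above 0. Over all tested probes 1.53% were called lower, but a list chosen by its values cannot be judged against that share. Gc read -3.43, -3.94, -3.10 and -2.67 in wild type and lay below background on every Ttpa-/- array, at least 2.66-fold lower (adjusted p 0.00213). Itih4, an inter-α-trypsin inhibitor chain, was likewise at least 3.05-fold lower (adjusted p 2.54e-04). Both of these probes passed the filter through the wild-type arrays alone, where they were higher. Serpina1c and Serpina1e, α1-antitrypsin paralogs that share sequence and may share probes, fell by 1.89 (adjusted p 0.0269) and 1.82 (adjusted p 0.0422), and the other Serpina1e probe read -0.34 (adjusted p 0.2).

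Supplemented Ttpa-/- cortex, on the slide of the wild-type arrays, was also low for them but not called. This Gc probe was again above background on no array (at least 2.31-fold lower, adjusted p 0.232), and the readings were lower by 1.37 for Itih4, above background on 1 array (0.249), 2.17 for Serpina1c (0.194) and 1.94 for Serpina1e (0.291). Wild-type replicate 4 was the highest array for Serpina1c (0.11) and Serpina1e (-0.38), and without it the changes were -1.57 (adjusted p 0.07) and -1.57 (adjusted p 0.0909). The Serpina1e call was lost whichever array was left out (-2.02 to -1.57), and that of Serpina1c without wild-type replicate 2 or Ttpa-/- replicates 2, 3 or 4 as well (-1.90 to -1.70). Albumin, Alb, was above background on 2 wild-type arrays and no Ttpa-/- array and was not tested.

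None of 18 excitatory and 17 inhibitory neuron genes was called, with medians of 0.09 and 0.11 and changes between -0.32 and 0.51 across both. Of 35 glutamate and GABA receptor subunits 1 rose and none fell, against 1.53% of all tested probes in each direction. This was Grin2d, an NMDA receptor subunit of interneurons, at 0.75 (adjusted p 0.0188), with Ttpa-/- replicate 4 inside the wild-type range. That call was lost without wild-type replicate 3 (0.60) or Ttpa-/- replicates 1, 2 or 3 (0.64 to 0.67). Among 17 clock genes 1 fell, the repressor Gm129 (now Ciart), against 1.53% of all tested probes. It fell by 0.86 (adjusted p 0.0447), a call lost whichever array was left out (-0.95 to -0.77). Per1 and Nr1d1 read -0.01 and 0.05.

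Oligodendrocyte and vascular lists held few calls. Mal, a proteolipid of compact myelin, was the 1 lower gene of 19 (-0.63, adjusted p 0.0277), against 1.53% of all tested probes. Mbp (-0.22), myelin basic protein, was not called. The Mal call was lost without wild-type replicates 1, 2 or 3 or Ttpa-/- replicates 1 or 2 (-0.64 to -0.49), and 3 genes were called without wild-type replicate 4. Oligodendrocyte precursors (8 genes), endothelium (13), mural cells (7) and meninges (9) had none called. Synpo2, an actin-binding protein on the thalamic list, fell by 0.71 (adjusted p 0.00409), and by 0.54 without Ttpa-/- replicate 1, under the fold threshold.

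Genes of defence against oxidation did not pass the threshold of change. None of 39 antioxidant enzymes and Nrf2 targets was called, and their changes ran from -0.44 to 0.38 with a median of -0.09. By the adjusted p alone 2 were higher, Gpx7, an endoplasmic reticulum peroxidase (0.38, adjusted p 0.0447), and Gss, glutathione synthetase (0.34), and 7 lower, among them Mgst1, a microsomal glutathione transferase (-0.44), Gsr, glutathione reductase (-0.35), and Keap1, the repressor of Nrf2 (-0.36). Over all tested probes 13% passed the adjusted p alone, 1608 higher and 2164 lower.

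None of 31 proteasome subunits was called, but 28 were negative and 12 were lower by the adjusted p alone, against 7.45% of all tested probes, with a median of -0.20 and Psmd14, a deubiquitinase of the lid, at -0.34. Of 70 respiratory chain subunits none was called, 65 were negative and the median was -0.13, and by the adjusted p alone 4 were lower, a share below that 7.45%. Cholesterol synthesis (23 genes, median 0.04), amyloid precursor processing and clearance (23 genes, median 0.00) and phospholipases A2 with eicosanoid enzymes (25 genes, median -0.03) held no call.

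Pla2g3, a secreted phospholipase A2 that the study followed further, read 0.47, 0.08, -0.07 and -1.86 in wild type and -0.96, -0.66, -0.79 and -0.79 in Ttpa-/-, so the Ttpa-/- arrays lay within the wild-type range. The change was -0.45 ± 0.40 (adjusted p 0.483), and -0.21 (adjusted p 0.781) on its other probe. Ide, the insulin-degrading enzyme that also degrades amyloid-β, read 0.49 to 0.76 in wild type and 0.49 to 0.55 in Ttpa-/- (change -0.08 ± 0.21, adjusted p 0.831). In the study's qRT-PCR, Pla2g3 rose in deficient wild-type and deficient Ttpa-/- cerebrum relative to wild type on the normal diet, which is another baseline. The study also listed Pla2g3 among the rises of its array screen of Ttpa-/- against age-matched wild-type cerebrum. At the protein level it reported an increase by western blot and stronger staining in astrocytes of Ttpa-/- cortex. Against aged normal-diet wild-type cortex, the deficient Ttpa-/- arrays read 0.59 for Pla2g3 on the first probe and -0.66 for Ide. Gm3448 read -0.62 (adjusted p 0.158) on the probe with the higher mean and fell by 0.65 (adjusted p 0.0395) on its other probe. Tcp10c changed by -0.59 (adjusted p 0.273), and Tsga10 by 0.53 (adjusted p 0.0982). Without wild-type replicate 4 the brighter Gm3448 probe (-0.90, adjusted p 0.0325) and Tsga10 (0.66, adjusted p 0.0424) were called. Fcgbp and Mybpc2 were not above background on all arrays of either genotype and were not tested.

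Glucocorticoid-responsive genes gave no call, although all 12 were negative with a median of -0.46. Plin4, a lipid droplet protein, read -1.51 (adjusted p 0.128) and Fkbp5, the FK506-binding feedback regulator of the receptor, -0.91 (adjusted p 0.128). Without wild-type replicate 4, 4 of the 12 were called.

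Markers of neighbouring tissue varied between mice. Ttr, transthyretin of the choroid plexus, read 6.77, 6.46, 5.15 and 6.01 in wild type and 3.44, 7.36, 7.29 and 7.36 in Ttpa-/-. The summed level of 11 choroid plexus genes was 5.33 to 6.91 in wild type and 3.69 to 7.51 in Ttpa-/-, and that of 8 blood genes, 7 of them tested, 5.28 to 6.96 and 4.16 to 8.90, with no gene called and every tested gene of both lists above 0. All 11 striatal genes tested were negative, with a median of -0.28 and none called. The summed level of the 12 striatal genes on the arrays was 6.17 to 7.21 in wild type against 6.05 to 6.27 in Ttpa-/-, and of 5 hippocampal genes none was called. The part of these tissues in the changes above was not tested.

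In the cerebellum of the same conditions 923 probes were higher and 587 lower of 30552 (4.94%). The labels do not say whether cortex and cerebellum arrays of the same number came from 1 mouse, and their deviations from the group means correlated by 0.15 to 0.53 in Ttpa-/- and -0.04 to 0.37 in wild type, so the regions are not taken as independent. Of the cortex calls 192 were called in the same direction in cerebellum, 21.5% of the cortex calls and 12.7% of the cerebellar ones, and 1 in the opposite direction. Gm13298, Ccl27a, Ccl19, Creb3, Klhl32, Car8 and Tfrc fell in both regions, and Hsf1 rose in cerebellum by 0.41, under the fold threshold (adjusted p 0.004). The Inhba change in cerebellum was 0.14, and the difference between regions of 1.0 did not pass the test (adjusted p 0.0617) but passed it with same-numbered arrays of both regions as pairs (0.0365). The Nptx2 probe with the larger cortical change was above background on no cerebellar array of either genotype, so no cerebellar change is given for it.

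Without pairs, the test of the regional difference called 80 probes with a larger value in cortex and 160 with a larger value in cerebellum, 0.826% of those tested, and with pairs 148 and 171, of which 192 were shared. Chka was among them: it rose by 1.16 in cortex on its called probe and read -0.22 in cerebellum (difference 1.38, adjusted p 0.0471, and 0.0553 with pairs). The extremes came mainly from the cerebellum. Sec14l4, a lipid-binding relative of α-TTP, read 0.08 in cortex and was above background on no Ttpa-/- array of cerebellum, where it was at least 2.06-fold lower (adjusted p of the regional difference 0.0234). Cd79b, a B-cell receptor subunit, read -0.09 in cortex and likewise was at least 2.24-fold lower in cerebellum (0.0499). Cpped1, a phosphatase, read 0.38 and -1.56 (difference 1.94, adjusted p 0.0389) on 1 of 3 probes. Gm9372 read 0.05 and 1.49 (-1.44, 9.06e-07) and Vmn1r48, a vomeronasal receptor gene, -0.05 and 1.37 (-1.41, 0.00823).

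Among these extremes Gm8149, a predicted gene, was called in cortex, where it was at least 3.26-fold lower on 1 probe and read 0.08 on the other. In cerebellum the first was above background on no array of either genotype, so its regional call (adjusted p 0.0285) sets a cortical fall against background. The differences of Gm8149, Sec14l4 and Cd79b are given next as read, since they include signals not above background. The Gm8149 call was lost without wild-type replicate 1 (-2.10) or Ttpa-/- replicates 1 (-2.62) or 3 (-2.66). Sec14l4 was lost without wild-type replicate 1 (3.02) or Ttpa-/- replicate 3 (3.09), and Cd79b without wild-type replicates 1, 2 or 3 or Ttpa-/- replicates 1, 2 or 3 (2.29 to 2.50). Cpped1 was lost without wild-type replicates 1, 2 or 4 or Ttpa-/- replicates 1, 2 or 3 (1.72 to 2.07).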

How the data were processed

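Of 40 Agilent arrays, the 8 of deficient-diet cortex were compared, 4 wild-type and 4 Ttpa-/-, grouped by the labels. For each array the authors deposited Feature Extraction 10.7.3.1 output, in which the processed signal, an intensity, has had background removed and spatial trends corrected array by array. The authors also deposited a table of log2 values, which matched the scaled log2 intensity described next after subtraction of the probe's average across the 40 arrays (median absolute difference 0.000915, array medians -0.235 to 0.185). It served as an alternative.

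Control spots and 101 to 142 flagged spots of an array were left out and repeated spots averaged. Of 55681 probes 92 without an unflagged spot on some array were left out. Log2 signals were scaled to the 75th percentile of each array. Groups were compared with limma 3.58.1 (R 4.3.3, with version 1.17.8 of the data.table package) in a model of all 10 groups without a block, with empirical Bayes moderation and Benjamini-Hochberg adjustment over the tested probes. Single values also had an exact two-sided permutation test, whose smallest p for 4 against 4 arrays is 0.0286. The number of arrays limits the precision. A gene above background on no array of one genotype has its fold change given as a lower bound: the mean of the bright group against, per array, the higher of the dim probe's own signal and the lowest signal among probes well above background.

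The comparison, the gene lists and the rule for names were chosen with earlier results of these data known. Named were Ttpa and genes of the study, the 10 largest rises and falls among named genes with separate groups above background on all 8 arrays, the 4 largest of each among all symbols, up to 4 called members of each list, up to 10 called probes within 20 Mb of Ttpa, and the 3 extremes of each sign of the regional difference. Creb3, Map3k7, Gc, Itih4, Ttr and the other genes of the distal window and of the liver list were added after their values were seen, as were uncalled list members given for comparison. Where a listed gene had several probes, the brightest on average was used. Of 21916 transcript identifiers 20591 were found in the RefSeq table of names (GRCm38.p6), 2224 of them under another symbol. Positions and probe sequences are those of the array files (mm9).

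The alternatives tried included scaling to the median, quantile normalization, normexp (offset 50), the deposited log2 values of the authors, other filters on dim probes, array weights, the 8 arrays or the cortex arrays alone, the replicate number as a block, the t-test of the methods, other thresholds, genes in place of probes, supplemented Ttpa-/- arrays, other windows around Ttpa and leaving out each array. The model was tested on data simulated for this comparison over 29061 probes, with 50 probes changed by each fold. Noise was drawn as independent normal values with each probe's own spread, without a slide effect or deviations shared by the probes of an array. The simulated counts therefore do not cover errors from those sources, and in the data slide and genotype coincide. Of these, 21 at 1.5-fold, 44 at 2-fold, 49 at 3-fold and 50 at 4-fold passed the adjusted p in the right direction. The fold threshold was not applied to these counts. Among unchanged probes, 8 passed both the adjusted p and the fold threshold. With 8 arrays alone the counts were 14, 36, 43 and 50, with 10 unchanged probes.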

Additional observations from a re-analysis of the deposited data

Results flagged for a closer look

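In 9 of 129 groups of 4 arrays looked at, 1 array stood apart from the other 3, and chance alone sets about 1 in 20 such groups apart. In wild type these were replicate 4 for Serpina1e (-0.38, the others -1.40 to -1.33), Pltp (1.82, the others 0.88 to 1.04) and the second Gc probe (-2.68, the others -3.44 to -3.33), and replicate 1 for NAP095541-001 (3.60, the others 3.36 to 3.38). In Ttpa-/- they were replicate 1 for Sec14l4 (-3.90, the others -2.95 to -2.78), Ch25h (-3.53, the others -2.25 to -2.06), Lgals3 (-0.95, the others 0.19 to 0.36) and Ttr (3.44, the others 7.29 to 7.36), and replicate 4 for Grin2d (-3.67, the others -2.56 to -2.46).

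The genotype effect of 7 named probes differed between cortex and cerebellum by the interaction test. The effect in cortex minus that in cerebellum was 3.20 for Sec14l4, 2.41 for Cd79b, 1.94 for Cpped1 and 1.38 for Chka, and it was -2.65 for Gm8149, -1.44 for Gm9372 and -1.41 for Vmn1r48. For Sec14l4 and Cd79b the Ttpa-/- arrays of cerebellum, and for Gm8149 all 8 deficient cerebellar arrays and the Ttpa-/- arrays of cortex, were not above background, so these values are readings and not sizes of a difference. The Chka difference did not pass with same-numbered arrays of both regions as pairs (adjusted p 0.0553).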

How the results depend on the processing

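Against 445 probes higher (1.53% of those tested), 446 lower (1.53%), 11 called near Ttpa and 240 with a regional difference, the percent of tested probes higher and lower and the counts near Ttpa and with a regional difference were 0.496%, 0.592%, 9 and 89 with median scaling, 0.499%, 0.702%, 3 and 157 with normexp, 2.65%, 2.64%, 14 and 626 with array weights, 0.00344%, 0.00344%, 0 and 23 (1 probe higher and 1 lower) with the compared groups alone, 0.265%, 0.368%, 3 and 93 at 2-fold, 1.14%, 1.56%, 4 and 70 for genes (169 and 230 of 14761), 2.61%, 2.31%, 12 and 1803 at an unadjusted p, 3.43%, 2.96%, 16 and 3105 by fold alone, 1.99%, 1.85%, 11 and 1403 by the methods' t-test at its unadjusted p, and 0.086%, 0.117%, 3 and 30 with that test after Benjamini-Hochberg. Near Ttpa 6 were called above background in both genotypes, 6 within 10 Mb and 90 on all of chromosome 4. Leaving out each array gave 0.707% to 2.67% higher, 0.685% to 2.44% lower, 8 to 14 near Ttpa and 79 to 628 regional differences. No filter gave 426 higher and 495 lower of 55589 probes (0.766% and 0.89%) with 162 regional differences, and quantile normalization, the authors' values and the cortex arrays alone gave 1.55% and 1.29%, 1.54% and 1.53%, and 1.32% and 1.55%. No scaling moved the median of all probes beyond -0.02 to 0.01. Same-numbered wild-type and Ttpa-/- cortex arrays did not deviate together (correlations -0.18 to 0.16), and the replicate block gave 1.66%, 1.6%, 11 and 323, with the calls of the brighter Nptx2 probe (adjusted p 0.0584) and Timp1 (0.057) lost. Same-numbered cortex and cerebellum arrays correlated by -0.04 to 0.53, and a replicate block for these pairs, chosen after seeing the data, gave 319 regional differences. The slide as a block could not be fitted, since each group lies within 1 slide. Of 61 called named probes 29 kept their call with every single array left out, 36 with median scaling, 40 with normexp and 3 with the compared groups alone.

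With supplemented Ttpa-/- arrays, 7 probes were higher (0.0246%), 2 lower (0.00703%) and 3 called near Ttpa, 2 of 52 named probes kept their call, and the sign turned for Ide (0.00778), Inhba (-0.0405), Fmnl1 (-0.13), Hsf1 (-0.000391), Fosb (-0.0600), the brighter Nptx2 probe (-0.22), Ccl27a (0.12 and 0.24), Gm13298 (0.33 and 0.36), 4933409K07Rik (0.34), Gm1987 (0.0340), Gm3893 (0.39) and Mal (0.13). The cause of these shifts was not tested. Signals near background limit what can be said of Ttpa, Car8 and the liver transcripts.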
